A study of Mus musculus with 72 samples.

Results

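The transcripts of 10 chemokines, Cxcl1, Cxcl2, Cxcl9, Cxcl10, Cxcl12, Cxcl13, Ccl2, Ccl7, Ccl19 and Ccl21a, were followed through lung, tumour, liver, kidney, spleen and thymus of mice given 1 of 3 gene circuits. They were taken by name and found by their GENCODE M21 identifiers as 10 of the 36047 mouse gene identifiers in each tissue table. The animals were EGFR DEL19 transgenic mice, which carry human EGFR with the DEL19 mutation. All groups, controls included, had received doxycycline for 25 days and had been examined by micro-CT before treatment. Each then received intravenous injections of 10 mg/kg every 2 days, 7 in all, and tissues were taken on Day 14. The control circuit, CMV-scrR, encodes a scrambled RNA. CMV-siRE encodes an siRNA directed at EGFR. In CMV-GE11-siRE that siRNA is combined with the EGFR-binding peptide GE11. CMV is the viral promoter of the circuits. With 4 libraries per circuit and tissue, 72 were read. The sources used here do not give the promoter that drives the transgene, the ages of the animals or whether the libraries of a group came from separate animals. The p-values therefore measure the spread between these libraries, which may be technical.

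The approximate depth of a library, its column total divided by its most frequent low value (taken as 1 read), was 12.2 to 20.9 M reads. In the tumour table, the human EGFR transcript ranged over normalized values of 1992 to 4025 with CMV-scrR, 452 to 1324 with CMV-siRE and 39.2 to 132 with CMV-GE11-siRE, and the difference passed the limma test for CMV-GE11-siRE against CMV-scrR (-5.19, adjusted p = 2.19e-05) but not for CMV-siRE against CMV-scrR (-1.89, adjusted p = 0.055). In tumour, the mean share of mitochondrially encoded genes was 68.6% for CMV-scrR, against 60.1% for CMV-siRE and 20.6% for CMV-GE11-siRE. CMV-GE11-siRE replicate 4 stood apart in kidney and thymus, with the lowest mitochondrial shares of those tables (3.69% and 0.558%). In 25 of 26 checks of a defining marker in its labelled tissue, each library was above every library elsewhere, with lung and tumour sharing 5 lung markers. The exception was Hba-a1 in spleen.

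Chemokines are small secreted proteins that bind G protein-coupled receptors and guide leukocytes along gradients. Cxcl9 and Cxcl10 are induced by interferons and attract activated T cells and NK cells through Cxcr3. Cxcl13 brings B cells into follicles through Cxcr5, while Ccl19 and Ccl21a bring T cells and dendritic cells into lymphoid tissue through Ccr7. Cxcl12 is made constitutively by stromal cells and acts through Cxcr4. Cxcl1 and Cxcl2 attract neutrophils through Cxcr2, and Ccl2 and Ccl7 attract monocytes through Ccr2. In bulk RNA, more or fewer cells of a type and more or less RNA per cell cannot be told apart.

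The genes lie on 4 chromosomes of the GRCm38 genome. Cxcl1 (ENSMUSG00000029380.11, chr5:90891241-90893115), Cxcl2, Cxcl9 (ENSMUSG00000029417.9, chr5:92321347-92328079), Cxcl10 (ENSMUSG00000034855.13, chr5:92346638-92348889) and Cxcl13 (ENSMUSG00000023078.6, chr5:95956951-95961068) are on chromosome 5. Ccl2 and Ccl7 lie beside each other on chromosome 11, Ccl19 and Ccl21a on chromosome 4, and Cxcl12 on chromosome 6. All 10 are protein coding. For the 4 members that passed a comparison in at least 1 tissue, the 250 bases before the RefSeq start site (GRCm38.p6) are shown, 5′ to 3′ on the gene's own strand, with motif matches in capitals.
Cxcl9, chr5:92328080-92328329, minus strand: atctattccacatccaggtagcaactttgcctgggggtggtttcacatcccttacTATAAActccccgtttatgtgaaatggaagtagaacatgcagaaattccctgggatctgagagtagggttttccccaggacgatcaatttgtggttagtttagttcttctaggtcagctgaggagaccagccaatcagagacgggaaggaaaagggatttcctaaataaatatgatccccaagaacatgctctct
Cxcl10, chr5:92348890-92349139, minus strand: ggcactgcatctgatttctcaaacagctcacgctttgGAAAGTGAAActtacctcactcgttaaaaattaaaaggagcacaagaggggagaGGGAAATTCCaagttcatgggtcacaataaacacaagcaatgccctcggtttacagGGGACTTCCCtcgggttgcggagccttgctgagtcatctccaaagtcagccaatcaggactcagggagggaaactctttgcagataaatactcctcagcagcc
Cxcl13, chr5:95956689-95956938, plus strand: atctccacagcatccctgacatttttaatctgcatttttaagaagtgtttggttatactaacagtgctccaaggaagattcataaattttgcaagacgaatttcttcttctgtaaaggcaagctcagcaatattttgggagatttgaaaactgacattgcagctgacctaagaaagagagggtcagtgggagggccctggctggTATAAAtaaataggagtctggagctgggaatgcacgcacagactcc
Cxcl1, chr5:90890995-90891244, plus strand: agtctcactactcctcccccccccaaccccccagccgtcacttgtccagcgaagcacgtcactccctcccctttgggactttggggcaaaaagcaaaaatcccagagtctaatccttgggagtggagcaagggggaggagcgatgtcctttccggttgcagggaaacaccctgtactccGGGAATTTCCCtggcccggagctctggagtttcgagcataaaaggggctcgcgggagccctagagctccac

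Motifs were searched in the 8 members with a RefSeq window, which runs from 250 bases before to 50 bases after the start. Ccl2 and Ccl7 are named only. The Cxcl10 window held a match to the ISRE core (GAAANNGAAA, the element bound by interferon-activated factors) that starts 213 bases before the start site, and 2 matches to the NF-kB consensus that start 159 and 103 bases before it. Cxcl9, its neighbour and fellow Cxcr3 ligand, held neither of these in its window, and its capitals mark a TATAAA at 195 bases before the start. Cxcl13 had a TATAAA 46 bases before the start. Cxcl1 and Cxcl2 each held 1 stretch that matches the NF-kB consensus on both strands, at 71 and 97 bases before the start. Ccl19 held an ISRE core match at 208 bases before it. Among all 32851 RefSeq windows, searched on both strands, 4.51% held the NF-kB consensus, 3.44% the ISRE core and 8.30% a GAS element (TTCNNNGAA), which none of the 8 members held. TATAAA, searched on the gene's strand only, was in 8.32% of windows, and it did not overlap another motif here. A match describes the letters of the window and not binding.

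**Figure D1:**
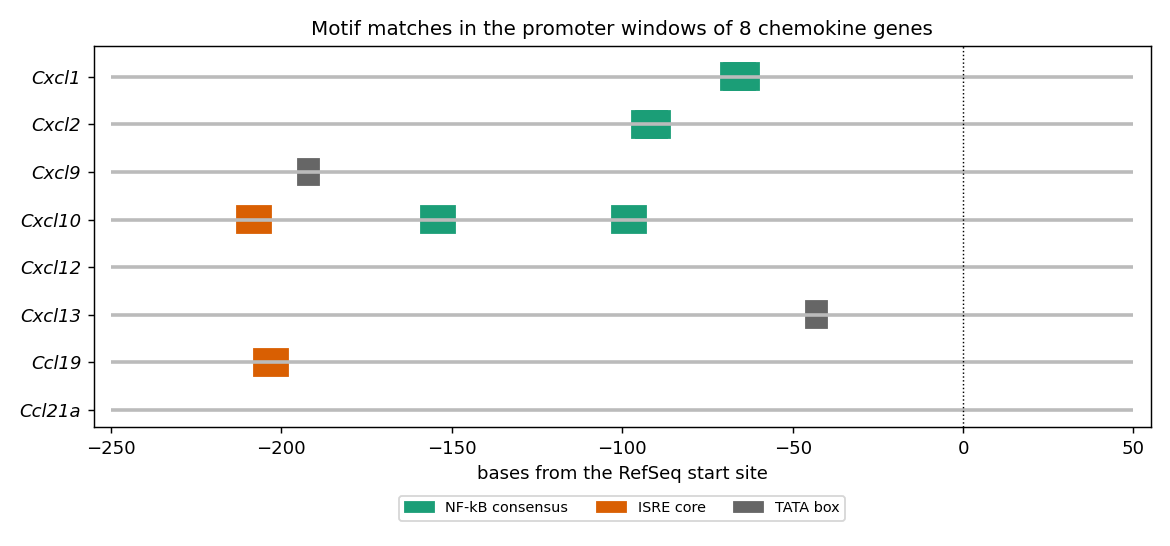
Each grey line is the window of 1 gene from 250 bases before to 50 bases after its RefSeq start site (dotted line), with bases from the start site on the x axis, and coloured boxes mark motif matches. Cxcl10 carries 3 boxes, an ISRE core and 2 NF-kB matches, whereas Cxcl12 and Ccl21a carry none.

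The members differed most in where they were made. The levels below are means ± SD (n = 4) of the CMV-scrR libraries in CPM, a library's deposited value rescaled to a fixed total (1e+06), with mitochondrially encoded genes left out of the total. The tissue tables were normalized separately, so these levels are set side by side with no test. Of the Cxcr3 ligands, Cxcl9 was highest in liver (98.5 ± 36.8) and next in spleen (35.8 ± 11.5), with neither range overlapping the one below. Thymus, lung, tumour and kidney followed at 12.8, 11.7, 10.5 and 6.04 with overlapping neighbours. Cxcl10 was spread more evenly, at 47.0 ± 20.8 in spleen, 39.9 ± 28.6 in kidney, 31.1 ± 25.0 in liver, 19.1 ± 1.83 in thymus, 17.5 ± 9.99 in lung and 5.89 ± 8.73 in tumour, and each of these overlapped the next.

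Each lymphoid chemokine was highest in a lymphoid organ, although Cxcl13 was low in thymus. Cxcl13 stood at 74.8 ± 21.9 CPM in spleen, above every other tissue, with tumour at 12.4 ± 14.4, liver at 5.78, lung at 3.26, thymus at 1.21 and kidney at 0.479. Ccl19 stood at 42.0 ± 5.74 in spleen and 4.37 ± 1.01 in thymus, and between 1.04 and 2.43 in the other tissues. Ccl21a led in thymus (216 ± 28.5), then spleen (137 ± 39.0), lung (47.3 ± 7.27), tumour (13.8 ± 5.06), kidney (3.36 ± 0.312) and liver (0.312 ± 0.230), and no neighbours in that order overlapped. Near-identical copies of Ccl21a share its sequence, so the division of reads among them is uncertain: Ccl21b and Gm10591 were at 0 in all libraries, and Gm13304 was above 0 in 2 tumour libraries, up to a normalized value of 5.30. Ccl19-ps1 reached a normalized value of 32.6 in spleen, small beside the 719 to 960 of Ccl19 in control spleens on that scale.

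Cxcl12 was abundant throughout, from 448 ± 50.9 CPM in liver through 312 ± 45.8 in lung, 232 ± 17.6 in thymus and 225 ± 53.2 in spleen to 87.6 ± 25.2 in kidney and 71.2 ± 40.5 in tumour. The liver range was above that of lung, while kidney and tumour overlapped. The inflammatory attractants were scarce. Cxcl1 had 20.4 ± 23.4 in liver, where 1 library carried most of it, and no more than 2.02 elsewhere. Cxcl2 stayed between 0.353 and 1.17. Ccl2 had 6.32 ± 6.92 in liver and 0.830 to 2.39 elsewhere, and Ccl7 ran from 0.323 in spleen to 3.66 in tumour. Only per length can the genes be set against each other: in CPM per kb of exon, mitochondrial genes again left out, Ccl21a led in thymus (248.5), spleen (157), lung (54.4) and tumour (15.8), Cxcl12 led in liver (54.8, against 32.7 for Cxcl9) and Cxcl10 led in kidney (17.7). These are orders of means, and 2 of the leads lie within the SD. Kidney Cxcl10 was 17.7 ± 12.7 against 10.7 ± 3.09 for Cxcl12, and tumour Ccl21a 15.8 ± 5.82 against 10.8 ± 12.5 for Cxcl13.

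**Figure D2:**
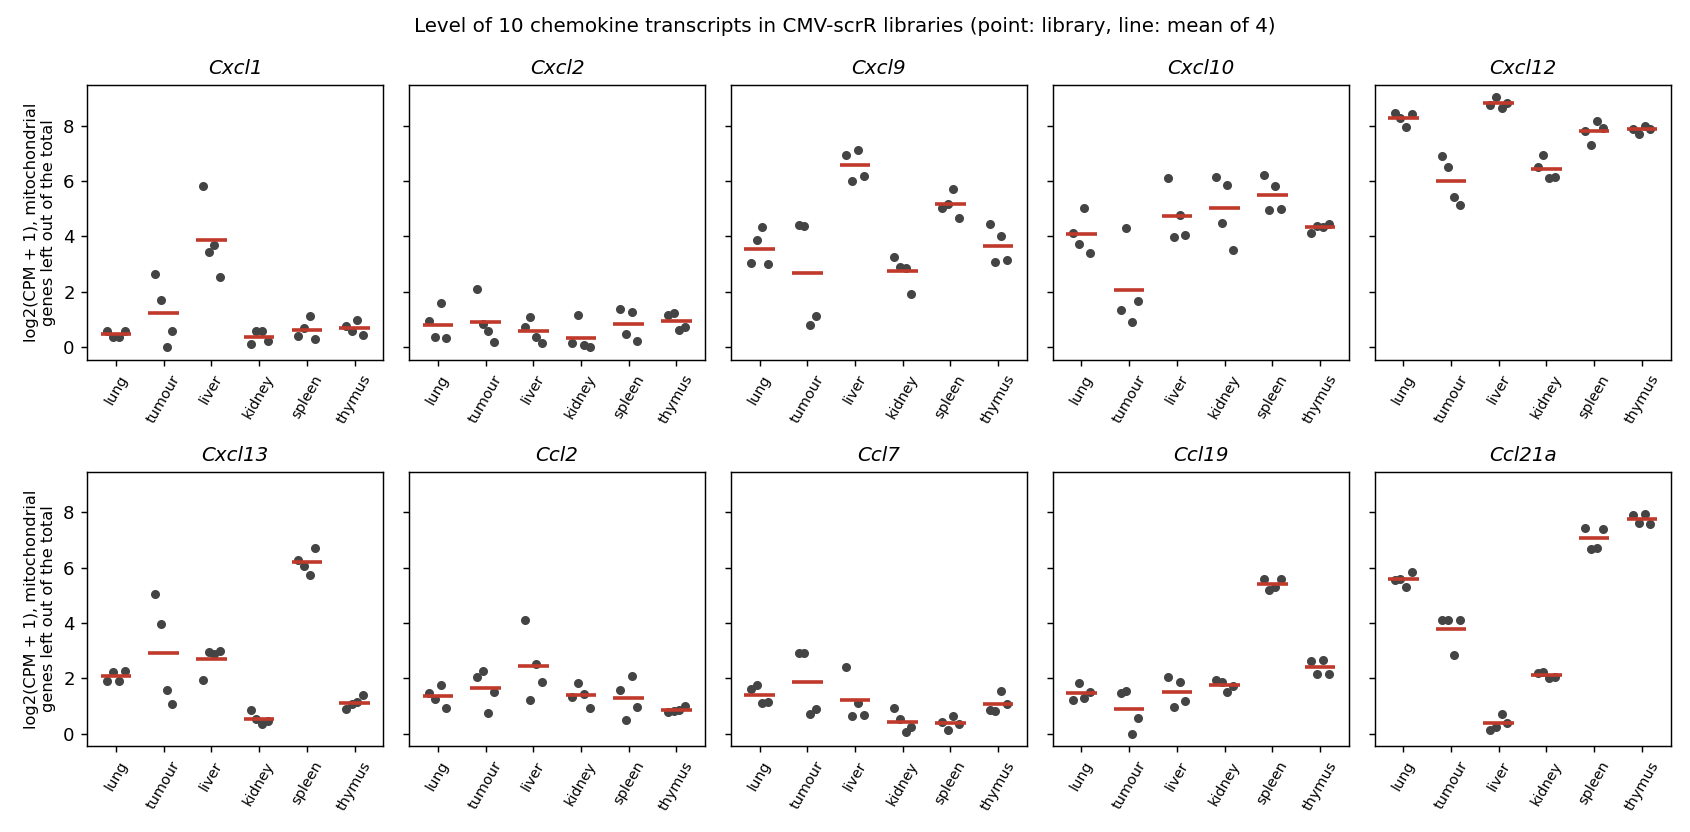
Each panel gives 1 gene in the 4 CMV-scrR libraries of each tissue, on a log2(CPM + 1) axis with mitochondrial genes left out of the total; points are libraries and red lines are means. Cxcl13 and Ccl19 stand out in spleen, Ccl21a in thymus and spleen, and Cxcl9 in liver, while Cxcl2 is low in all 6 tissues.

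Differences between circuits were then tested within each tissue with limma on log2(value + 1), and they are given as log2 differences ± the standard error of the fit. A gene passed at a Benjamini-Hochberg adjusted p under 0.05 over all genes tested. Of 159 member differences tested in 18 comparisons, 8 passed. These were for Cxcl9, Cxcl10, Cxcl13 and Cxcl1. In all 8 the 4 libraries of a circuit lay wholly above or below the 4 of the control. That separation comes from the tested values and adds no support. Members that did not pass were also separated in places, as Cxcl1, Cxcl10 and Cxcl12 in lung with CMV-siRE. Comparisons of both siRNA circuits with CMV-scrR share 4 control libraries.

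In lung, 1 of 10 members passed for CMV-siRE against CMV-scrR, where 1.41% of all genes tested passed, none for CMV-GE11-siRE against CMV-scrR (background 0%, with 1277 genes and 2 members at an unadjusted p under 0.05) and none for CMV-GE11-siRE against CMV-siRE (background 0.0619%). In tumour, 8 members had values high enough to be tested, without Cxcl2 and Ccl2. There, none passed for CMV-siRE against CMV-scrR (background 0.256%), 1 passed for CMV-GE11-siRE against CMV-scrR, where 41.9% of all genes passed, and none passed between the siRNA circuits (background 0.0214%). The share of 1 in 8 members is below that background. In liver, with 9 members tested, 2 passed for CMV-siRE against CMV-scrR (background 4.04%), 1 for CMV-GE11-siRE against CMV-scrR (background 4.23%) and none between the siRNA circuits (background 0.0069%).

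In spleen, 7 members were tested, without Cxcl1, Cxcl2 and Ccl7. Of these, 2 passed for CMV-siRE against CMV-scrR (background 4.61%), 1 for CMV-GE11-siRE against CMV-scrR (background 5.76%) and none between the siRNA circuits (background 0.112%). In kidney, none of 9 members passed in the 3 comparisons, and neither did any other gene (background 0% in each, with 1486, 1218 and 599 genes at an unadjusted p under 0.05 and 1, 2 and 2 members). In thymus, none of 10 members passed, and the background was 0.00609% for CMV-siRE against CMV-scrR and 0% in the other comparisons (1550 genes at an unadjusted p under 0.05 for CMV-GE11-siRE against CMV-scrR, 461 between the siRNA circuits, and no member in either). The shares over all genes rest in part on single libraries. In spleen, the 923 genes that passed for CMV-GE11-siRE against CMV-scrR became 182 when CMV-GE11-siRE replicate 3 was left out and 73 when CMV-scrR libraries 1 and 3 were, and the 739 for CMV-siRE became 283 without those controls. Leaving out single libraries gave 73 to 189 genes in lung for CMV-siRE (228 as reported), and 179 to 533 (585) and 273 to 674 (612) in liver for CMV-siRE and CMV-GE11-siRE. In tumour it gave 1 to 798 genes for CMV-siRE against CMV-scrR (36) and 1 to 3176 between the siRNA circuits (3).

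The median over the tested members ran from -1.25 in tumour (CMV-GE11-siRE against CMV-scrR) to 0.87 in kidney (CMV-siRE against CMV-scrR), and over all genes from -0.03 to 0.05.

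**Figure D3:**
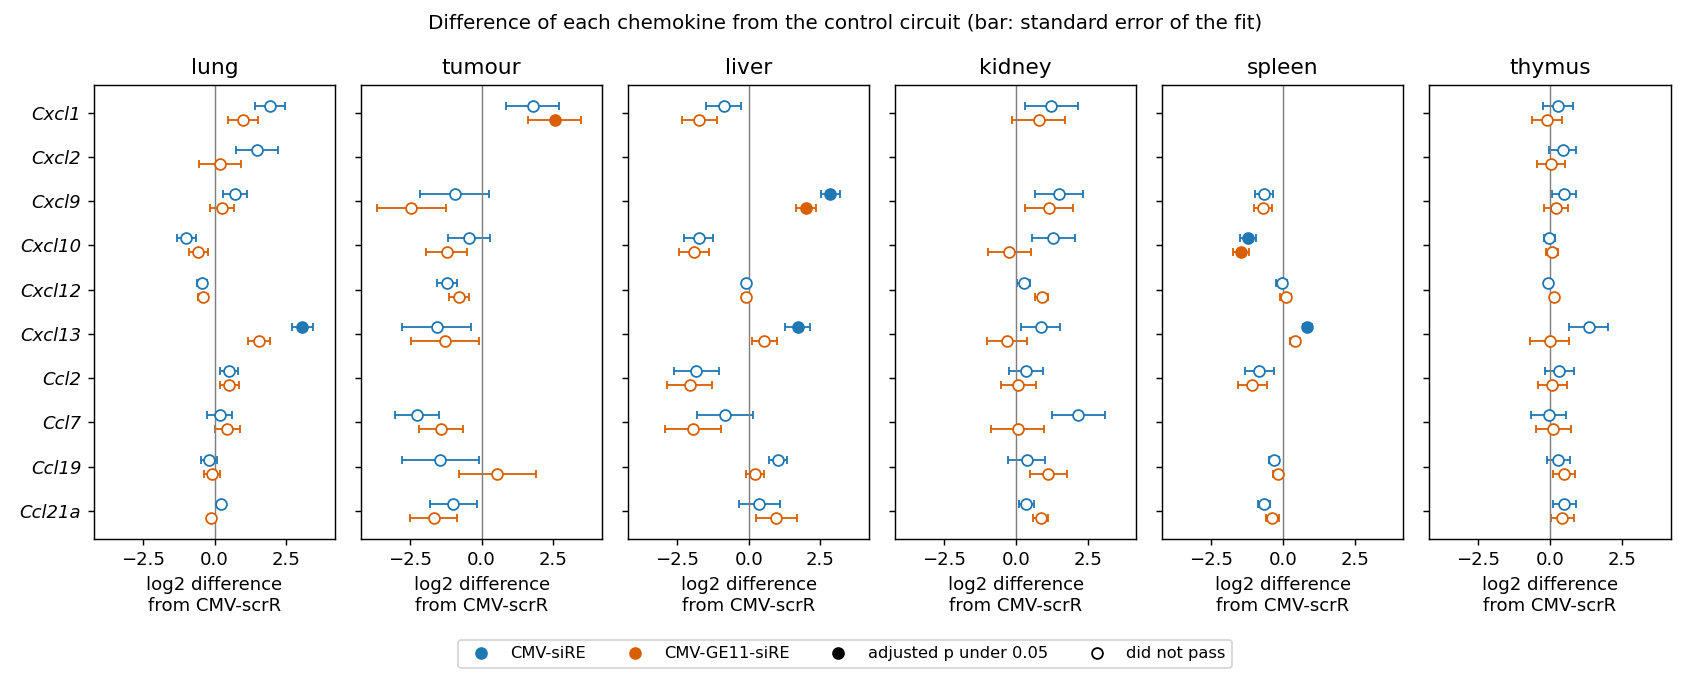
For each tissue, the x axis is the log2 difference from CMV-scrR and each row a chemokine; points are estimates of the limma fit, bars their standard errors, filled points those with an adjusted p under 0.05, and genes under the filter are left blank. The filled points are Cxcl9 (both circuits) and Cxcl13 in liver, Cxcl13 in lung, Cxcl10 (both circuits) and Cxcl13 in spleen, and Cxcl1 in tumour.

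Cxcl9 rose in liver with both siRNA circuits. The CMV-scrR libraries held normalized values, as scaled within the tissue table, of 2371, 1257, 2594 and 1338. With CMV-siRE they were 6191, 20601, 17965 and 11957, and with CMV-GE11-siRE 5136, 8362, 7162 and 8562. All 8 libraries given an siRNA circuit were above all 4 controls, while the siRNA circuits overlapped each other. The mean of CMV-siRE was 7.50 times that of the control (log2 difference 2.84 ± 0.34, adjusted p = 0.00104, limma) and that of CMV-GE11-siRE 3.87 times (2.00 ± 0.34, adjusted p = 0.00778). The difference between the siRNA circuits was -0.84 (adjusted p = 0.569) and did not pass. Leaving out any 1 library kept both differences past the threshold, at 2.62 to 3.19 and 1.83 to 2.17.

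In no other tissue did Cxcl9 pass. Its differences from CMV-scrR were 0.71 in lung, 1.51 in kidney and 0.50 in thymus with CMV-siRE, and -0.64 in spleen, all with overlapping groups. In tumour they pointed down, at -0.93 with CMV-siRE (adjusted p = 0.683) and -2.45 with CMV-GE11-siRE (adjusted p = 0.115). Control tumours read 166, 154, 8.36 and 12.4 and overlapped both circuits. Kidney libraries with CMV-siRE were far apart, at 1225, 185, 39.5 and 507, against 139, 103, 104 and 45.7 in the control. Lymphocyte markers in liver overlapped between circuits. The summed NK and cytotoxic markers ran from 704 to 918 with CMV-scrR and 757 to 1389 with CMV-siRE, and the T cell markers from 255 to 400 and 350 to 1123, with no gene of either list passing in that comparison. With CMV-GE11-siRE, Gzmb alone of the 2 lists passed, and it was lower (-0.71). Of 8 monocyte and macrophage markers in liver, C1qa alone passed, lower in both comparisons (-0.58 and -0.59). With CMV-siRE 4 of these 8 were above 0 and 4 below, and with CMV-GE11-siRE 1 was above and 7 below. S100a9, a neutrophil gene, was higher with CMV-siRE (1.43). Of the 5 neutrophil markers tested there, 4 were above 0 and 1 below. The sums of both lists overlapped the control. Of 4 blood endothelial markers Kdr alone passed, higher with both circuits (0.56 and 0.63). In each comparison 3 of these 4 were above 0 and 1 below, with overlapping sums. The 4 lymphatic endothelial markers summed to 3112 to 3857 in control livers and, without overlap, 4282 to 4534 with CMV-siRE. Of these, 3 could be tested, all with differences above 0, and none passed. The part of such cells in the Cxcl9 difference was not tested. No marker of these lists was at 0 throughout.

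Cxcl10, its neighbour on chromosome 5, fell in spleen with both siRNA circuits. Control spleens held 1495, 594, 1074 and 566, CMV-siRE spleens 436, 315, 296 and 453, and CMV-GE11-siRE spleens 346, 299, 243 and 391. Libraries of both siRNA circuits lay below the lowest control. Cxcl10 fell by 1.22 ± 0.28 on the log2 scale with CMV-siRE (adjusted p = 0.0248, limma) and by 1.44 ± 0.28 with CMV-GE11-siRE (adjusted p = 0.0151). Its call was lost without CMV-scrR replicate 3 (-1.11, adjusted p = 0.0694), CMV-siRE replicate 2 (-1.14, 0.0709) or CMV-siRE replicate 3 (-1.11, 0.0694) in the CMV-siRE comparison, and without CMV-GE11-siRE replicate 3 (-1.32, 0.0556) in the other.

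The control libraries numbered 1 and 3 were the 2 highest of the 4 for Cxcl10 in lung, liver, kidney and spleen, but not in tumour or thymus. The labels do not say that libraries of the same number come from 1 animal. In liver these controls read 1305 and 501, with 291 and 294 in the others, and in kidney 1143 and 953, with 338 and 171. Cxcl9 had the same 2 highest in 3 tissues (liver, kidney and thymus) and Ccl2 in 3 (lung, liver and spleen). The other members had libraries 1 and 3 highest in fewer tissues, from 0 of 6 for Cxcl13 to 2 of 6 for Cxcl1. With both libraries left out, an alternative chosen after their values were seen outside lung, the spleen differences of Cxcl10 were -0.65 (adjusted p = 0.171) and -0.88 (adjusted p = 0.106), and neither passed. The liver differences of Cxcl9 were then 3.31 (adjusted p = 0.00136) and 2.47 (adjusted p = 0.0141). Both passed, but libraries 1 and 3 were the highest liver controls for Cxcl9. Leaving them out could therefore only enlarge its rise, and it is no check on that rise.

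**Figure D4:**
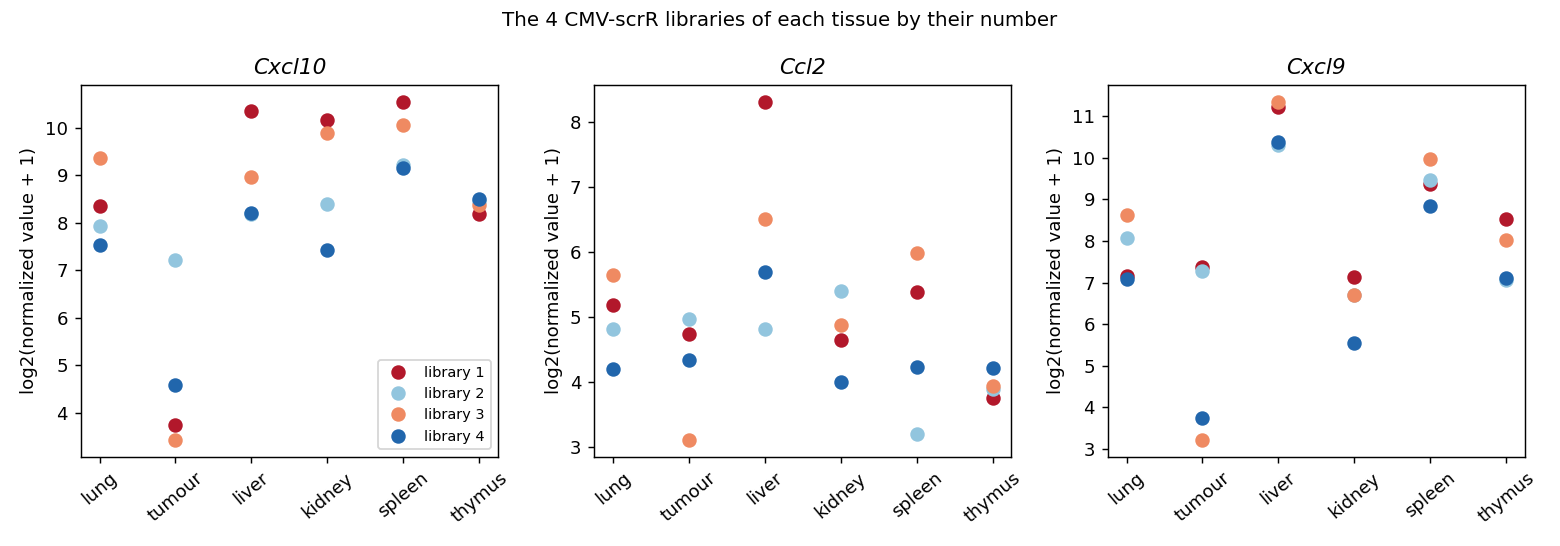
Each panel gives 1 gene in the 4 CMV-scrR libraries of each tissue, on a log2(normalized value + 1) axis, with a colour for each library number; scales differ between tissues. For Cxcl10, libraries 1 and 3 (red and orange) are the highest in lung, liver, kidney and spleen, and in thymus the 4 lie within 290 to 363.

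In liver, Cxcl10 pointed the other way from Cxcl9, but its difference did not pass. Values were 126, 133, 125 and 208 with CMV-siRE, all below the lowest control, and 71.3, 111, 91.7 and 382 with CMV-GE11-siRE, which overlapped the control through replicate 4. The differences were -1.74 ± 0.51 (adjusted p = 0.0726, limma) and -1.90 ± 0.51 (adjusted p = 0.0519). Without CMV-GE11-siRE replicate 4 the latter was -2.42 (adjusted p = 0.0084) and without CMV-scrR replicate 2 it was -2.15 (adjusted p = 0.0438), both of which passed. With only the 8 libraries compared in the fit, the CMV-siRE difference passed too (adjusted p = 0.0457). Without control libraries 1 and 3, the highest for liver Cxcl10, the CMV-siRE difference was -1.01 (adjusted p = 0.400). That of CMV-GE11-siRE was then -1.17 (adjusted p = 0.345), and neither passed. Over the 12 liver libraries, which share table, scaling and circuit groups, Cxcl9 and Cxcl10 had a Pearson r of -0.52 in log2(CPM + 1), given as a description. In spleen the 2 genes had an r of 0.67. In lung, Cxcl10 was 325, 244, 657 and 185 in the control and 159, 157, 182 and 140 with CMV-siRE, all lower, with a difference of -0.98 that did not pass (adjusted p = 0.151) and was -0.42 without control libraries 1 and 3. In tumour the CMV-GE11-siRE difference of Cxcl10 was -1.22 (adjusted p = 0.187), and without control libraries 1 and 3 it was -2.37 and passed (adjusted p = 0.0312). There, unlike in lung, liver, kidney and spleen, libraries 1 and 3 were the lowest controls (12.4 and 9.83). The controls kept read 148 and 23.0, and the value of 148 stood apart from the other controls. Kidney showed no fixed order, with 1592, 2039, 556 and 1330.2 under CMV-siRE.

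**Figure D5:**
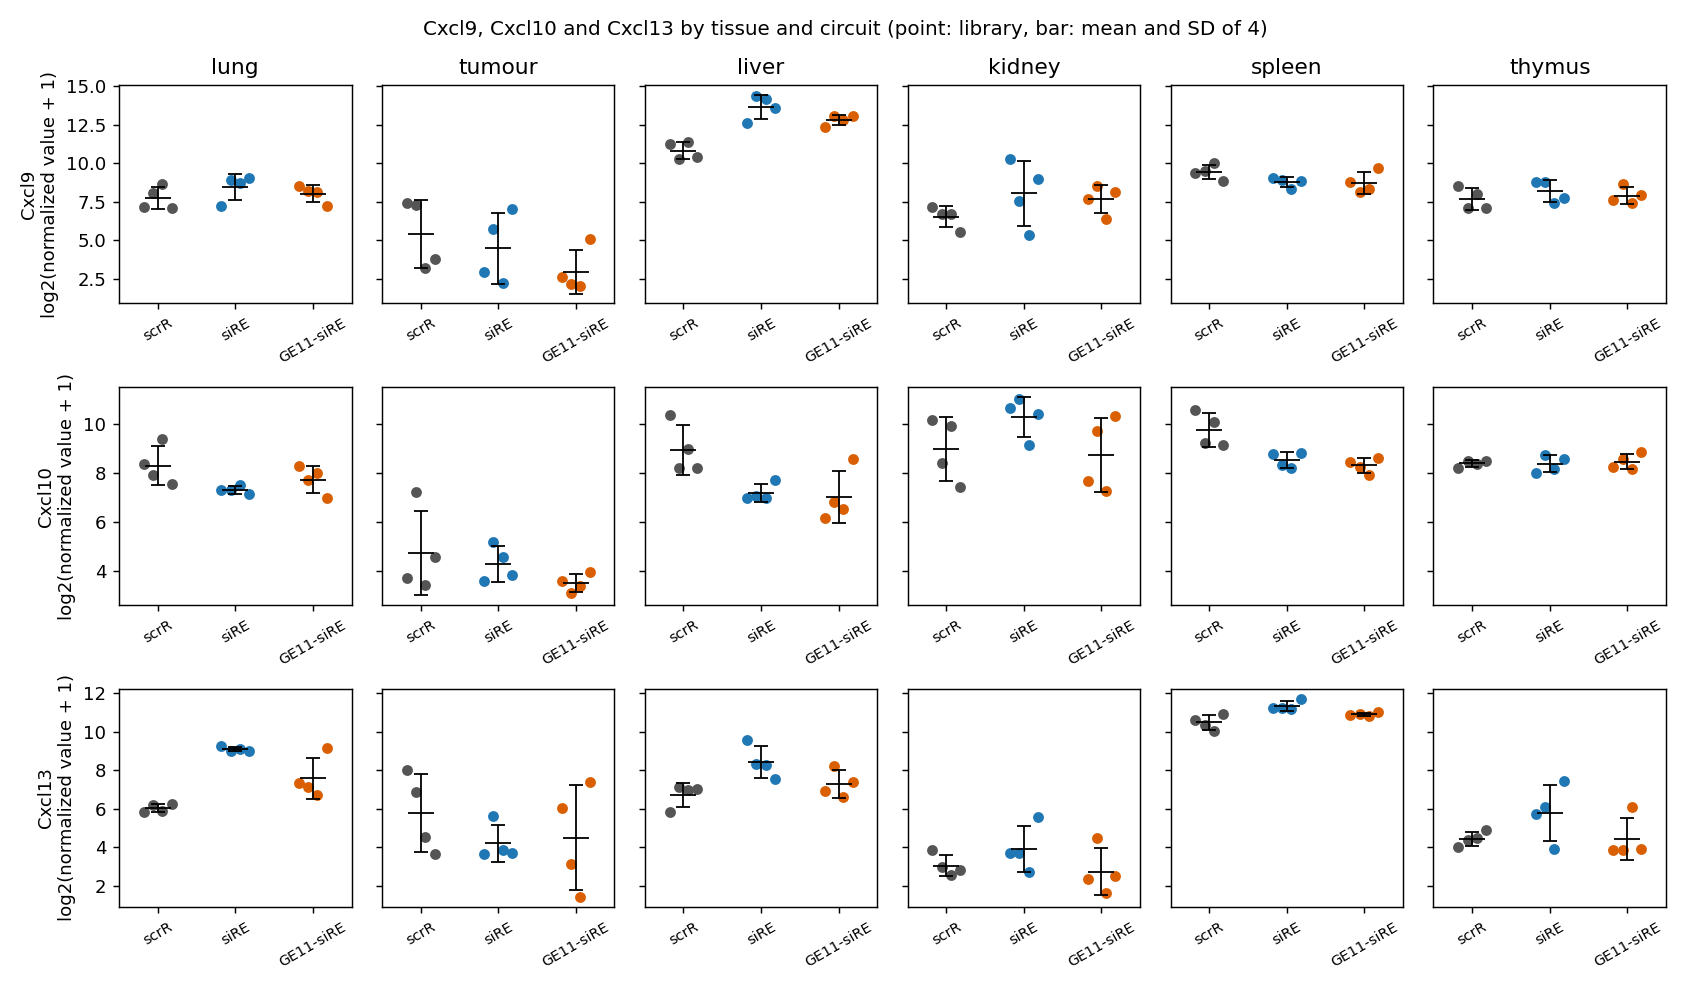
Rows are Cxcl9, Cxcl10 and Cxcl13, columns the 6 tissues; the y axis is log2(normalized value + 1), points are libraries and bars the mean and SD of 4. Liver Cxcl9 is higher in all 8 libraries given an siRNA circuit, spleen Cxcl10 is lower in all 8, and lung Cxcl13 is higher in all 4 CMV-siRE libraries.

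Cxcl13, the B cell follicle chemokine, rose with CMV-siRE in lung, liver and spleen. Its largest difference was in lung, where control values of 55.1, 73.2, 57.0 and 74.3 stood against 609, 517, 538 and 518. The 2 groups were far apart and the CMV-siRE libraries differed little among themselves. The mean was 8.41 times the control (3.06 ± 0.38, adjusted p = 0.00172, limma), and the difference passed without any 1 library (2.99 to 3.13) and without control libraries 1 and 3 (2.87, adjusted p = 0.0252). CMV-GE11-siRE lungs read 158, 140, 103 and 560, all above the control, with a difference of 1.54 that did not pass (adjusted p = 0.208). Replicate 4 of that circuit lay at the level of CMV-siRE and the other 3 well below it. Between the siRNA circuits the lung difference was -1.52 (adjusted p = 0.296), and without that replicate it was -2.04 (adjusted p = 0.000756) and passed.

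Beside the lung rise of Cxcl13, the 7 B cell markers summed to 2713 to 3991 with CMV-scrR and 2423 to 5359 with CMV-siRE, and none of them passed. Cxcr5, the receptor of Cxcl13, had normalized values of 199 ± 43.3 and 196 ± 83.9 (SD, n = 4). Of 8 monocyte and macrophage markers 3 were higher with CMV-siRE, Adgre1 (0.94), C1qa (0.71) and C1qb (0.92), while the sums overlapped (12612 to 20267 and 15777 to 19543). The 4 lymphatic endothelial markers summed to 5955 to 8702 and 9095 to 14963, without overlap. None of these 4 passed, with 3 differences above 0 and 1 below. The 4 blood endothelial markers were wholly lower with CMV-siRE, at 62902 to 69471 against 72412 to 89193, and none of them passed. The part of these cells in the Cxcl13 difference was not tested.

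In spleen, where Cxcl13 is most abundant, control values of 1563, 1317, 1030.2 and 1947 stood against 2420.3, 2361, 2317 and 3368 with CMV-siRE. The groups did not overlap, and the mean was 1.79 times the control (0.86 ± 0.17, adjusted p = 0.0121, limma). With CMV-GE11-siRE the values were 1892, 1901, 1775 and 2053, and the difference of 0.42 did not pass (adjusted p = 0.147). These lay below all CMV-siRE libraries, although the difference between the siRNA circuits (-0.44) did not pass either (adjusted p = 0.416). Without control libraries 1 and 3 the CMV-siRE difference was 0.69 and no longer passed (adjusted p = 0.0744). Spleen B cell markers overlapped (sums of 49638 to 79200 and 64189 to 81915), whereas 2 of 4 plasma cell markers, Jchain (1.24) and Mzb1 (0.77), were higher with CMV-siRE, with sums of 10404 to 21691 and 23193 to 31422. Their part in the result was not tested.

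In liver, Cxcl13 read 54.8, 136, 123 and 131 in the control and 747, 321, 308 and 187 with CMV-siRE. The groups did not overlap, and the difference was 1.70 ± 0.43 (adjusted p = 0.0398, limma). It held in direction but not past the threshold without 7 of the 8 libraries compared in turn: 1.39, 1.83, 1.78 and 1.81 without CMV-scrR replicates 1, 2, 3 and 4 (adjusted p = 0.106, 0.0514, 0.0681 and 0.0536) and 1.33, 1.73 and 1.75 without CMV-siRE replicates 1, 2 and 3 (adjusted p = 0.0891, 0.0922 and 0.0909). Without control libraries 1 and 3 together it was 1.35 (adjusted p = 0.233). CMV-GE11-siRE livers overlapped the control, at 118, 298, 96.4 and 166. In tumour, kidney and thymus Cxcl13 did not pass, and single libraries ranged widely, as from 1.63 to 169 in tumour with CMV-GE11-siRE and from 14.0 to 172 in thymus with CMV-siRE.

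Of the Ccr7 ligands neither passed in any comparison. Liver Ccl19 was 60.2, 19.6, 50.3 and 24.4 in the control, 59.2, 77.8, 71.2 and 77.5 under CMV-siRE and 34.9, 42.2, 44.8 and 40.2 under CMV-GE11-siRE. The CMV-siRE difference was 1.01 (adjusted p = 0.0874, limma), and it passed without CMV-scrR replicate 1 (1.27, adjusted p = 0.0469) and without control libraries 1 and 3 (1.66, adjusted p = 0.0112). These were the highest controls for liver Ccl19, so leaving them out could only enlarge the difference. Spleen Ccl21a was 3524, 2020.3, 2041 and 3163 in the control and 2109, 1221, 1502 and 1963 with CMV-siRE, with overlap, and its difference of -0.65 did not pass (adjusted p = 0.111). Thymus Ccl21a, the most abundant member there, read 4193, 3421, 4201 and 3341 in the control, 4766, 6847, 4139 and 6002 under CMV-siRE and 2891, 5841, 2885 and 13677 under CMV-GE11-siRE. The last and highest value belongs to the library that stood apart. Tumour Ccl21a had a CMV-GE11-siRE difference of -1.67 (adjusted p = 0.119), which passed without CMV-GE11-siRE replicate 4 (-2.42, adjusted p = 0.0248). In kidney both siRNA circuits had Ccl21a above the control range of 50.6 to 58.4, at 62.1 to 85.9 and 70.7 to 148, and neither difference passed (0.37 and 0.87, adjusted p = 0.629 and 0.520).

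Cxcl12, the stromal ligand of Cxcr4, did not pass in any comparison. In tumour the control read 973, 699, 466 and 357, CMV-siRE 311, 288, 162 and 264, and CMV-GE11-siRE 582, 294, 223 and 321. All CMV-siRE tumours lay below the lowest control, with a difference of -1.22 (adjusted p = 0.0859, limma). The CMV-GE11-siRE difference was -0.80 (adjusted p = 0.0796) and became 1.29 when tumours were scaled to a common column total instead, a scaling that moves the median over all genes from 0.05 to 2.10. It passed without CMV-scrR replicate 4 (-1.03, adjusted p = 0.0351) and without CMV-GE11-siRE replicate 1 (-1.07, adjusted p = 0.0305). In lung, values of 5135 to 6958 in the control stood above 4332 to 4841 with CMV-siRE, without overlap (-0.43, adjusted p = 0.231). In kidney they were 1142 to 1939 and, with CMV-GE11-siRE, 2295 to 2947 (0.90, adjusted p = 0.520). Liver Cxcl12, with overlapping groups, had a difference of -0.09 for CMV-siRE against CMV-scrR.

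Among the neutrophil attractants, Cxcl1 passed in tumour for CMV-GE11-siRE. Control tumours read 43.1, 17.9, 0 and 5.33, CMV-siRE tumours 62.1, 9.95, 49.3 and 20.3, and CMV-GE11-siRE tumours 50.2, 55.7, 44.1 and 45.9. The last group lay just above the highest control, and its 4 libraries were close together. The difference was 2.55 ± 0.92 (adjusted p = 0.0396, limma). The control values rest on few reads. By the most frequent low value, 1 read stood for 1.74 to 2.47 in control tumours and 0.309 to 0.554 with CMV-GE11-siRE. The difference did not pass without CMV-scrR replicate 3 (1.52, adjusted p = 0.0972), CMV-scrR replicate 4 (2.40, 0.0805) or any 1 of the 4 CMV-GE11-siRE libraries (2.48 to 2.59, adjusted p = 0.0697 to 0.0792), nor with a pseudocount of 0.1 (3.43, adjusted p = 0.0639). With the mitochondrial share as a covariate it was 1.77 ± 2.35 (adjusted p = 0.990), where no gene in the tumour table passed. Of 6 neutrophil markers 5 could be tested in tumour, and none passed.

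In lung, Cxcl1 was 9.86, 5.60, 5.65 and 9.67 in the control, 28.9, 16.6, 119 and 16.2 under CMV-siRE and 18.4, 14.8, 11.2 and 20.0 under CMV-GE11-siRE. Libraries of both siRNA circuits lay above all controls, and neither difference passed (1.94 and 0.99, adjusted p = 0.0808 and 0.698, limma). Lung neutrophil markers overlapped, with sums of 2092 to 11325 in the control and 4179 to 16061 with CMV-siRE. In liver, 1 control library held 1063 against 197, 225 and 90.6 in the others, and siRNA libraries lay at 49.5 to 231. Cxcl2 was tested only in lung and thymus and passed in neither.

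The monocyte attractants did not pass. Liver Ccl2 read 317, 27.1, 90.1 and 50.6 in the control, 9.11, 27.3, 26.1 and 33.6 under CMV-siRE and 11.8, 12, 7.53 and 98.8 under CMV-GE11-siRE. Its differences were -1.82 and -2.05 (adjusted p = 0.214 and 0.158, limma), and the latter was -2.84 and passed without CMV-GE11-siRE replicate 4 (adjusted p = 0.0316). Without control libraries 1 and 3 they were -0.74 (adjusted p = 0.746) and -0.97 (adjusted p = 0.663). CMV-scrR replicate 1 and CMV-GE11-siRE replicate 4 were also high for liver Ccl7, at 83.4 and 50.4 against no more than 22.1 in the others of their groups. Tumour Ccl7 was 53.2, 51.4, 7.34 and 9.21 in the control and 2.42, 4.51, 10.6 and 1.21 with CMV-siRE (-2.24, adjusted p = 0.124). In spleen, Ccl2 had a difference of -1.06 with CMV-GE11-siRE (adjusted p = 0.216), which passed without CMV-scrR replicate 2 (-1.56, adjusted p = 0.0497). Without control libraries 1 and 3, the highest controls for spleen Ccl2, that difference was -0.07 (adjusted p = 0.962). Kidney Ccl7 had a difference of 2.18 with CMV-siRE (adjusted p = 0.498). Ccl12, a close relative of Ccl2, ran from 0 to 91.4 over the 72 libraries.

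Beside the members, 50 other genes of the chemokine system were read: 14 receptors and scavengers, 25 other ligands and 11 upstream inducers. In liver 41 could be tested. With CMV-siRE 2 were higher and 3 lower (4.04% of all genes passed), and with CMV-GE11-siRE 2 were higher and 4 lower (4.23% of all genes). Without control libraries 1 and 3, the same counts were 2 higher and none lower in both comparisons. Ccl5, which attracts T cells and monocytes, rose with CMV-siRE from 102, 120, 91.0 and 115 to 727, 550, 556 and 742 (2.57 ± 0.21, adjusted p = 3.91e-05, limma). It also rose with CMV-GE11-siRE, to 260.5, 413, 245 and 509 (1.67 ± 0.21, adjusted p = 0.00223). Ccl8 read at most 0.992 in control livers and 14.5 to 33.2 with CMV-siRE (adjusted p = 0.00169), and it rose with CMV-GE11-siRE as well (2.74, adjusted p = 0.0114). Ccl24, an eosinophil attractant, fell by 2.20 ± 0.41 with CMV-siRE (adjusted p = 0.0135), a call lost without control libraries 1 and 3 (-2.19, adjusted p = 0.0888). Relb, an NF-kB subunit, fell by 1.06 with CMV-GE11-siRE (adjusted p = 0.0369), and this was lost without those controls too (-0.84, adjusted p = 0.177). Ccl5 passed without them in both comparisons (adjusted p = 0.00102 and 0.0292). Ccl8 did too (adjusted p = 0.0061 and 0.0325), with the same limit from the filter.

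In lung 2 of 48 list genes passed with CMV-siRE, both lower, where 1.41% of all genes passed. Irf1, an interferon-induced transcription factor, fell by 0.89 ± 0.19 (adjusted p = 0.0359, limma). Its controls read 7324, 4365, 9065 and 4468, highest in libraries 1 and 3, and without these the difference was -0.45 and did not pass (adjusted p = 0.078). In spleen 8 of 41 fell under CMV-siRE and 14 of 41 under CMV-GE11-siRE, and none rose, where 4.61% and 5.76% of all genes passed. Without control libraries 1 and 3 the counts were 4 and 1. The falls include Ccl22 (-1.43 ± 0.21, adjusted p = 0.00246), a ligand of Ccr4, Il1b (-1.08, 0.0223) and Irf1 (-0.85, 0.00877) with CMV-siRE, and Cxcr1 (-1.94, 0.0453), Il1b (-1.23, 0.0165), Ccr1 (-1.03, 0.0243) and Ccl3 (adjusted p = 0.045) with CMV-GE11-siRE. Control Il1b was 1332, 580, 992 and 684, again highest in libraries 1 and 3. Without those libraries Ccl22 (-1.16, adjusted p = 0.0298) and Irf1 (-0.51, adjusted p = 0.0489) still passed, and Il1b in both comparisons, Cxcr1, Ccr1 and Ccl3 did not (adjusted p = 0.146 to 0.263). Of 11 inducers 6 and 8 fell, and of 14 receptors none under CMV-siRE and 4 under CMV-GE11-siRE. Beside the spleen falls, 5 of 6 NK and cytotoxic markers were lower with CMV-GE11-siRE. Their sums were 1314 to 2234 against 3680 to 4990 in the control. Csf3r and Ly6c2 were lower and Mrc1 was higher with both circuits, but neutrophil and macrophage sums overlapped the control. Under CMV-siRE, Adgre1 also passed as higher (0.755). There, 5 of 6 neutrophil markers and 6 of 8 monocyte and macrophage markers had differences above 0. Under CMV-GE11-siRE, Ccr2 passed as lower (-0.68), all 6 neutrophil markers were below 0 and 5 of 8 monocyte and macrophage markers above it. The part of these markers in the fall of Cxcl10 was not tested.

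In tumour, 2 of 36 list genes rose and 4 fell with CMV-GE11-siRE, against the background of 41.9%. Cxcl15, the lung epithelial chemokine, rose from 5813 ± 2547 to 24779 ± 7800.3 (SD, n = 4). Its difference was 2.18 (adjusted p = 0.00239, limma). Ltbr, the lymphotoxin beta receptor, rose by 1.68 (adjusted p = 0.00082), and the macrophage ligands Ccl6 and Ccl9 fell by 2.02 and 1.85 (adjusted p = 0.0213 and 0.0057). Of 8 macrophage markers, 3 were lower in that comparison, Adgre1 (-2.27), Cd68 (-1.11) and C1qb (-1.47), a share below the background of 41.9%. The tumour groups differed in mean mitochondrial share, at 68.6% for CMV-scrR and 20.6% for CMV-GE11-siRE. With that share as a covariate, no gene passed in this comparison. The median over all genes was 0.05 as reported and 2.10 once tumours had a common column total. The part of this shift in the rises and falls above was not tested. None of the list passed in the other comparisons of tumour or in any of kidney (37 tested) or thymus (46 tested).

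The genes most like each member that passed, by Pearson r of log2(CPM + 1) over the 12 libraries of the tissue, are given as a description, since these libraries share groups, scaling and depth. For Cxcl10 in spleen they were Socs1 (0.98), Ifi47 (0.98) and Ly6c2 (0.97). For Cxcl9 in liver they were Trip4 (0.94), Adh4 (0.94) and Saa3 (0.94). Cxcl13 was matched by Dnajc10, Golph3l and Zfp52 in lung (0.95, 0.95 and 0.95), by Raver2, Lpcat1 and Napepld in liver (0.93, 0.92 and 0.91) and by Alg5, Enpp2 and Htra1 in spleen (0.95, 0.94 and 0.93), with no gene shared among these lists of 3. Tumour Cxcl1 was matched by Cnnm2, Miga2 and Vps9d1 (0.99, 0.98 and 0.98).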

How the data were processed

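RNA sequencing values of 72 libraries were read from 6 tables, 1 per tissue. Tumour columns are written differently from the sample titles and were matched to them by circuit letter and number. Per the labels' protocols, total RNA was extracted with TRIzol and made into TruSeq libraries. The deposited values are a signal with no stated unit. They were taken to be gene counts that the authors divided by a size factor within each tissue table, since they are fractional with recurring steps and the submitters' processing notes name DESeq2, without a version or role. The sources used here do not name the aligner, counter, build or annotation. The values are fractional and whole reads could not be recovered, so no count model was used.

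Among 36047 mouse identifiers 35968 matched GENCODE M21 with their version, and all 10 members were found. A gene entered the test when 4 or more of a tissue's 12 libraries reached a value of 10. Testing was done with limma 3.58.1 (limma-trend, R 4.3.3) on log2(value + 1), with all 12 libraries in the fit and 3 comparisons. P-values were adjusted over all genes tested with a threshold of 0.05. Differences on this scale understate those of low genes. The method was tested on simulated data. CPM is the value over the column total, or over the total without mitochondrially encoded genes.

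Members and lists were chosen with earlier results of these data known. All 10 members were named, and from the pathway list up to 4 genes a comparison that passed, by largest absolute difference, with the 3 genes most like a member that passed. Results of some listed genes are not reported here. Same-numbered libraries of different circuits correlated at -0.28 to 0.27 in their deviations, so numbers were not treated as pairs. Alternatives were a pseudocount of 0.1, no filter, only the 8 libraries compared, a replicate block, 2 other scalings, a mitochondrial covariate in tumour and leaving out libraries. Sequences are from RefSeq (GRCm38.p6), with windows for 8 of 10 members.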

Additional observations from a re-analysis of the deposited data

Results flagged for a closer look

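In 21 of 159 groups of 4 libraries, the highest or lowest library stood apart from the other 3 by more than Dixon's critical value for 4 samples. Chance gives such a gap in about 1 group in 20 when values are normally distributed. The rule was applied to values without a log transform, for which that rate need not hold, so the count of 21 shows no excess. Normalized values are given. In lung these were Cxcl1 in CMV-siRE replicate 3 (118.9, others 16.2 to 28.9), Cxcl13 in CMV-GE11-siRE replicate 4 (560.4, others 103 to 158) and Ccl19 in CMV-siRE replicate 4 (23.65, below 32.1 to 33.9). The Cxcl13 value of that CMV-GE11-siRE lung lay within the range of CMV-siRE.

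In tumour, CMV-GE11-siRE replicate 4 was high for Cxcl9 (32.29) and Ccl19 (116, others at most 6.85), CMV-siRE replicate 2 for Cxcl13 (48.39) and Ccl19 (10.88), and CMV-scrR replicate 2 for Cxcl10 (148.3). In liver, CMV-scrR replicate 1 was high for Cxcl1 (1063) and Ccl7 (83.42) and low for Cxcl13 (54.83). CMV-GE11-siRE replicate 4 in liver was high for Cxcl10 (382.3), Ccl2 (98.79) and Ccl7 (50.35) and low for Cxcl12 (6242, others 8558 to 8749), and CMV-siRE replicate 4 was high for Cxcl10 (208.4). In kidney, Cxcl1 stood apart in CMV-GE11-siRE replicate 4 (52.13) and Cxcl13 in CMV-siRE replicate 4 (45.6) and CMV-GE11-siRE replicate 2 (21.1). Cxcl13 also stood apart in spleen in CMV-siRE replicate 4 (3368) and in thymus in CMV-GE11-siRE replicate 3 (66.42, others 13.5 to 13.9).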

How the results depend on the processing

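Counts of members past the threshold are given as reported and then under the alternative. In lung the count between the siRNA circuits was 0 and ran from 0 to 1 when single libraries were left out. In tumour CMV-siRE against CMV-scrR went from 0 to 1 with the replicate block (Cxcl12, adjusted p = 0.0438). CMV-GE11-siRE against CMV-scrR in tumour went from 1 to 0 with a pseudocount of 0.1, with no filter and with the mitochondrial covariate, to 2 with the replicate block, with column total scaling and without CMV-scrR libraries 1 and 3, and ran from 0 to 1 without single libraries. Between the siRNA circuits in tumour, column total scaling gave 4 in place of 0. Under that scaling the tumour difference of Cxcl12 for CMV-GE11-siRE against CMV-scrR turned from -0.80 to 1.29, and the median over all genes went from 0.05 to 2.10. Liver CMV-siRE against CMV-scrR went from 2 to 1 with no filter and with the replicate block, and from 1 to 2 over single libraries left out, and CMV-GE11-siRE against CMV-scrR from 1 to 3. Without CMV-scrR libraries 1 and 3, pathway list genes past the threshold went from 2 to 1 in lung (CMV-siRE), from 5 and 6 to 2 and 2 in liver, and from 8 and 14 to 4 and 1 in spleen (CMV-siRE and CMV-GE11-siRE). Spleen counts of 2 and 1 members both went to 0 without CMV-scrR libraries 1 and 3, and ran from 1 to 2 and from 0 to 2 without single libraries. The replicate block, with numbers that do not pair the libraries, changed no other count of members. Liver Cxcl9 with both circuits and lung Cxcl13 with CMV-siRE passed under every alternative run. For liver Cxcl9, leaving out CMV-scrR libraries 1 and 3, its highest controls, could only enlarge the difference. Of the 151 differences that did not pass, 53 changed sign in at least 1 alternative. Low values limit Cxcl1, Cxcl2, Ccl2 and Ccl7 most. Except where the alternative itself has fewer libraries, the cause was not tested.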
